A study of Homo sapiens with 2 samples.

Results

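The BMP signalling and ID genes described here are 10 genes: the ligand genes BMP2, BMP4 and BMP7, the antagonist gene GREM1, the receptor genes BMPR1A and BMPR2, the inhibitory SMAD gene SMAD6 and the target genes ID1, ID2 and ID3. They were taken by symbol from a table of 20985 genes, and each had 1 row. Polyadenylated RNA was sequenced from HCC827 ZDR3 cells and from parental HCC827 cells, with 1 library of each. HCC827 is an established human lung adenocarcinoma line with an activating EGFR mutation. ZDR3 is a derivative of it that was selected in gefitinib, an inhibitor of the EGFR kinase, from 10 nM upward in monthly steps to 1 µM, after which single colonies were picked. The labels do not say which colony ZDR3 came from, whether the drug was present at harvest, or whether the sequenced cells grew in the isotope-labelling medium that the growth protocol describes. The series title asks about JUN, EGFR signalling and gefitinib resistance, and the BMP genes are not its stated subject.

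Bone morphogenetic proteins are secreted dimers that bind a complex of type I and type II serine-threonine kinase receptors. The type I receptor phosphorylates SMAD1, SMAD5 or SMAD9, which enter the nucleus with SMAD4 and switch on target genes. The ID genes are the best known of these targets. ID proteins have a helix-loop-helix domain but no DNA-binding region, so they hold bHLH E proteins away from E-box DNA. SMAD6 is itself induced by BMP signals and inhibits them, while secreted antagonists such as GREM1 trap the ligand outside the cell. In the lung, BMP4 takes part in airway branching, and ID genes are active in many carcinomas.

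Upstream sequences of ID1, ID2, ID3 and SMAD6 are shown because these are the target genes of the set, with ID1 and SMAD6 at lower levels and ID2 and ID3 at higher levels in ZDR3 cells. Each line gives the 250 bases before the RefSeq start site on GRCh38.p14, 5′ to 3′ on the gene's own strand. ID1 is on the plus strand at chr20:31605039-31605288, ID2 on the plus strand at chr2:8681806-8682055, ID3 on the minus strand at chr1:23559502-23559751 and SMAD6 on the plus strand at chr15:66701986-66702235. Capitals mark matches, on either strand, to GGCGCC and GGAGCC, both GC-rich letters bound by BMP SMADs, to CAGAC, which holds the SMAD box, and to CANNTG, the E-box.
ID1: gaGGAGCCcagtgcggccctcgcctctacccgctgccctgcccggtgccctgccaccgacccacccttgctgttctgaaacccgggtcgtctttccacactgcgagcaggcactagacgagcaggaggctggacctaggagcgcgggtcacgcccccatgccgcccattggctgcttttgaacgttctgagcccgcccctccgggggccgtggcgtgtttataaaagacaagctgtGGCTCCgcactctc
ID2: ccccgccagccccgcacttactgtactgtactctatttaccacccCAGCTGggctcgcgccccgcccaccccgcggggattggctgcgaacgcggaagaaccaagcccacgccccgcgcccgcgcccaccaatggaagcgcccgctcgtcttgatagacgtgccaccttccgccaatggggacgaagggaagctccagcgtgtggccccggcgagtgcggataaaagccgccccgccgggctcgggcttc
ID3: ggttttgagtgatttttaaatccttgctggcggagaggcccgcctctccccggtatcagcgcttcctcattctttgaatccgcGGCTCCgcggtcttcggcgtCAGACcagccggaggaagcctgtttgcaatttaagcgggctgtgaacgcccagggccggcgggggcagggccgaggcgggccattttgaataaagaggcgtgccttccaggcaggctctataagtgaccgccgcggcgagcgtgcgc
SMAD6: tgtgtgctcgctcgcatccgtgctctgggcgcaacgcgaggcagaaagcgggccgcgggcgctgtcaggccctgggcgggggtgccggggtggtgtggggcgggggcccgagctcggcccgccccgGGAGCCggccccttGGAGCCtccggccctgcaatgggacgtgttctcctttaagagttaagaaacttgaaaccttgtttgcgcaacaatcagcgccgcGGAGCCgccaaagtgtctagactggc

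The window of SMAD6 held 3 matches to GGAGCC, at 124, 110 and 26 bases before the start. That of ID1 held 2, at 248 and 14 bases. That of ID3 held 1, at 167 bases, and 1 match to CAGAC at 147 bases. ID2 had 1 E-box, at 205 bases, and no match to the 3 SMAD motifs in this window. No capital belongs to more than 1 motif, and none of the 4 windows held GGCGCC. Over all 35116 RefSeq windows of this length, 30.6% held GGAGCC, 16.4% held GGCGCC, 38.0% held CAGAC and 61.8% held an E-box. The 4 windows had a GC content of 62.0% to 69.2%, against a median of 58.0% over all windows. A match of letters is a description and not a binding site. The table held windows for 8 of the 10 genes, and those not shown held matches too. The window of BMPR2 held 1 match to GGCGCC, 1 to GGAGCC, 2 to CAGAC and 1 E-box. BMP4 had all of the motifs over its several start sites, and the first window of GREM1 held 2 matches to GGCGCC.

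Between these 2 libraries the genes took both directions. BMP2, ID1 and SMAD6 were at least 2-fold lower in ZDR3 cells and BMP4 was at least 2-fold higher. ID2 and ID3 were less than 2-fold higher, and BMPR1A and BMPR2 lay close to their parental levels. BMP7 and GREM1 were almost without reads in both libraries. With 1 library per group no p-value can be given and no difference has a replicate check. The spread between cultures is unknown, and in bulk RNA fewer expressing cells and less RNA per cell cannot be told apart.

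Levels are the deposited log2 values turned back into normalised reads. A level of 1 corresponded to 138 reads in the ZDR3 library, which held 243549866 gene reads, and to 143 reads in the parental library, which held 257192597. The log2 ratio divides ZDR3 by parental with a pseudocount of 1 on each level, and so understates the ratio of low genes. The plain ratio of levels is given with its exact 95% Clopper-Pearson interval, which covers counting error only. A gene counted as expressed where either library reached a level of 1, and an expressed gene was called higher or lower in ZDR3 cells where its log2 ratio reached 1 or -1, a 2-fold difference. By this measure 8 of the 10 genes were expressed, of which 1 was called higher and 3 were called lower. Of all 13777 expressed genes 10.6% were called higher and 9.68% lower, with -0.03 as the median log2 ratio. The 8 genes had a median of -0.14.

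The labelled cell type was checked against its markers. Of 9 epithelial and lung adenocarcinoma markers 8 were expressed, and their summed level over all 9 was 5625 in ZDR3 and 14228 in parental cells. EPCAM was at 62.4 in ZDR3 and 527 in parental cells and NKX2-1 at 9.33 in ZDR3 and 95.0 in parental cells, so ZDR3 cells kept these markers at lower levels. The surfactant gene SFTPB stayed under a level of 1 in both. The 9 fibroblast markers summed to 1.998 in ZDR3 and 9.603 in parental cells, with COL3A1 and THY1 at 0 reads in both. Most of these sums was COL1A1, at 1.76 (242 reads) in ZDR3 and 9.15 (1308 reads) in parental cells. COL1A1 was the 1 expressed fibroblast marker and was called lower (log2 ratio -1.88). The 10 leukocyte markers summed to 2.144 and the 6 endothelial markers to 1.286 in ZDR3 cells, against 5.179 and 0.889 in parental cells. The 3 expressed leukocyte markers were lower in ZDR3 cells, with 28 reads in ZDR3 and 268 in parental cells for CD14, 105 in ZDR3 and 261 in parental cells for CSF1R, and 24 in ZDR3 and 148 in parental cells for LST1. PTPRC had 32 reads in ZDR3 and 0 in parental cells, and CD3E and MS4A1 had 0 in both. The part of the lower epithelial marker levels in the results below was not tested.

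**Figure D1:**
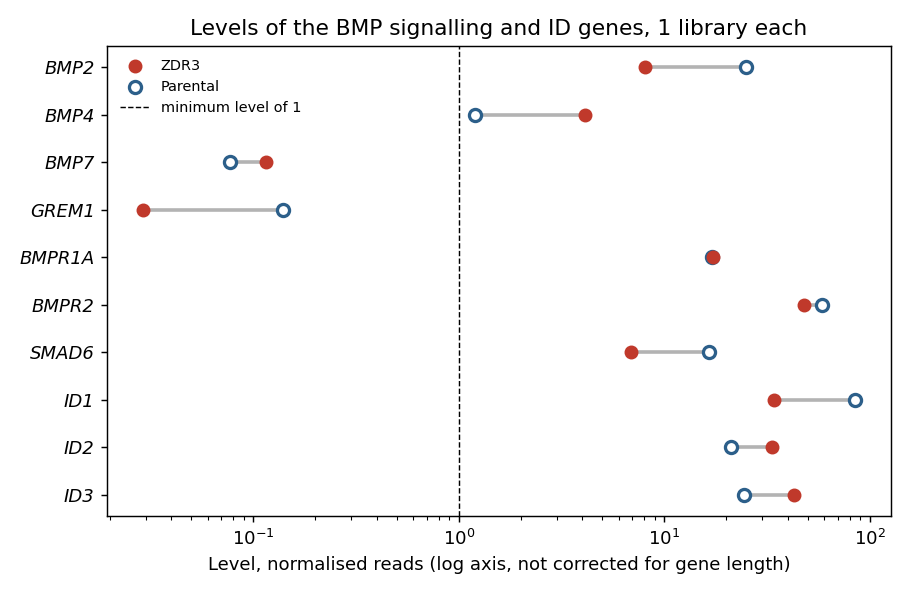
Level of each of the 10 genes in normalised reads (log axis, not corrected for gene length) in the ZDR3 library (filled) and the parental library (open). BMP2, SMAD6 and ID1 lie lower and BMP4, ID2 and ID3 higher in ZDR3 cells, while BMP7 and GREM1 stay left of the dashed minimum level of 1.

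Among the ligands, BMP2 (ENSG00000125845), a strong inducer of bone and cartilage that also acts in epithelia, had a level of 8.02 (1104 reads) in ZDR3 and 25.0 (3571 reads) in parental cells. Its log2 ratio was -1.53 and its plain ratio 0.321, with an interval of 0.300 to 0.343. By this log2 ratio 4.88% of all expressed genes lay lower. BMP4 (ENSG00000125378), the closest relative of BMP2 in the set, was at 4.13 (568 reads) in ZDR3 and 1.20 (172 reads) in parental cells. The log2 ratio of BMP4 was 1.22 and the plain ratio 3.43, with an interval of 2.89 to 4.09. With a pseudocount of 5 the log2 ratio of BMP4 was 0.56, under the 2-fold limit. The 2 related ligands thus lay on opposite sides of 0. BMP7 (ENSG00000101144), a ligand of kidney and epithelial development, had 16 reads in ZDR3 and 11 in parental cells. The interval of its ratio, 0.658 to 3.60, holds 1, so no difference in BMP7 was detectable at this depth.

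Read per length, the ligand that led the BMP genes was not the same in the 2 libraries. Reads per kilobase of annotated exon, scaled to library size (RPKM, computed here with GENCODE 29 exon lengths), were summed over BMP2, BMP4, BMP6, BMP7, BMP8A and BMP8B, to 9.21 in ZDR3 and 4.73 in parental cells. BMP2 made up 13.7% of this sum in ZDR3 and 81.5% in parental cells. BMP4 made up 8.22% in ZDR3 and 4.59% in parental cells (12.6% and 7.17% with the longest transcript as length). The largest share in ZDR3 cells was that of BMP8B, a BMP of germ cells and brown fat in mice, at 44.8% against 9.17% in parental cells. BMP8B had a level of 35.2 in ZDR3 and 3.77 in parental cells (log2 ratio 2.93). Its neighbour and near copy BMP8A was at 5.17 in ZDR3 and 0.357 in parental cells (log2 ratio 2.18), and reads that fit both copies make the split between them uncertain. BMP6, an inducer of the iron hormone hepcidin in the liver, was at 6.53 (899 reads) in ZDR3 and 0.497 (71 reads) in parental cells, a log2 ratio of 2.33. BMP3, which unlike most of the family acts as an inhibitor of bone formation, had 4 reads in ZDR3 and 518 in parental cells, and its plain ratio of 0.00802 had an interval of 0.00218 to 0.0207. The sum above leaves out BMP3, which stood at 0.00286 RPKM in ZDR3 and 0.351 RPKM in parental cells. In parental cells that is above BMP4, at 0.217 RPKM, so the shares depend on the genes summed. With the longest transcript as length the 2 were almost equal in parental cells, at 0.351 for BMP3 and 0.349 for BMP4. Of 18 ligand genes outside the set 7 were expressed, with 3 called higher, 1 called lower and a median log2 ratio of 0.21. The same calls took in 10.6% of all expressed genes as higher and 9.68% as lower, with a median of -0.03.

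GREM1 (ENSG00000166923), an antagonist of BMP2 and BMP4 that is often made by stromal cells, had 4 reads in ZDR3 and 20 in parental cells. Its plain ratio was 0.208 with an interval of 0.0516 to 0.620, while its log2 ratio with the pseudocount was -0.15. Both levels, 0.0291 in ZDR3 and 0.140 in parental cells, lay far under the minimum. Of the 17 other antagonist genes that had a row, 8 were expressed, 7 of them with a log2 ratio above 0, and their median was 0.73. Of all 13777 expressed genes 6587 lay above 0, with a median of -0.03, and 10.6% were called higher and 9.68% lower. Chordin (CHRD) was at 2.08 in ZDR3 and 0.427 in parental cells (log2 ratio 1.11) and was the one called higher. Follistatin (FST), which binds activin and some BMPs, was the one called lower, at 0.320 in ZDR3 and 2.36 in parental cells (log2 ratio -1.35). CRIM1, a membrane protein that binds BMPs, was at 103 in ZDR3 and 50.9 in parental cells, and FSTL3 at 12.7 in ZDR3 and 6.06 in parental cells. Their log2 ratios of 1.00 and 0.95 fell just short of the 2-fold call.

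The receptor genes of the set differed least. BMPR1A (ENSG00000107779), a type I receptor for BMP2 and BMP4, was at 17.2 (2364 reads) in ZDR3 and 17.1 (2440 reads) in parental cells. Its plain ratio was 1.01, with an interval of 0.950 to 1.06 that holds 1. BMPR2 (ENSG00000204217), the type II receptor that phosphorylates the type I chain, was at 48.1 (6618 reads) in ZDR3 and 58.8 (8407 reads) in parental cells. The log2 ratio of BMPR2 was -0.29 and the plain ratio 0.817, with an interval of 0.791 to 0.844. BMPR2 held 77.3% of the reads per kilobase of the 3 type II genes BMPR2, ACVR2A and ACVR2B in ZDR3 and 81.8% in parental cells, so it led this class in both.

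Among the type I genes a receptor outside the set differed most. BMPR1B, a receptor close to BMPR1A in sequence, was at 53.2 (7322 reads) in ZDR3 and 15.2 (2175 reads) in parental cells, a log2 ratio of 1.74. Per length BMPR1B made up 37.7% of the 4 type I genes in ZDR3 and 12.0% in parental cells. BMPR1A held 6.73% in ZDR3 and 7.43% in parental cells. ACVR1 (ALK2), which also serves BMP6 and BMP7, was the largest in both, with 52.1% in ZDR3 and 77.5% in parental cells, at a log2 ratio of -0.41. The 40 expressed genes nearest to ACVR1 had a median log2 ratio of -0.87, with 36 of them below 0. With that median subtracted ACVR1 stood at 0.46, on the other side of 0. Of 10 receptor and co-receptor genes outside the set 8 were expressed. Where 10.6% of all expressed genes were called higher and 9.68% lower, BMPR1B alone of these 8 passed the 2-fold call. The next in size was NEO1 (neogenin), a partner of the BMP co-receptors of the RGM family, at 255 in ZDR3 and 131 in parental cells (log2 ratio 0.95), followed by ACVR2B at 2.41 in ZDR3 and 3.56 in parental cells (-0.42).

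**Figure D2:**
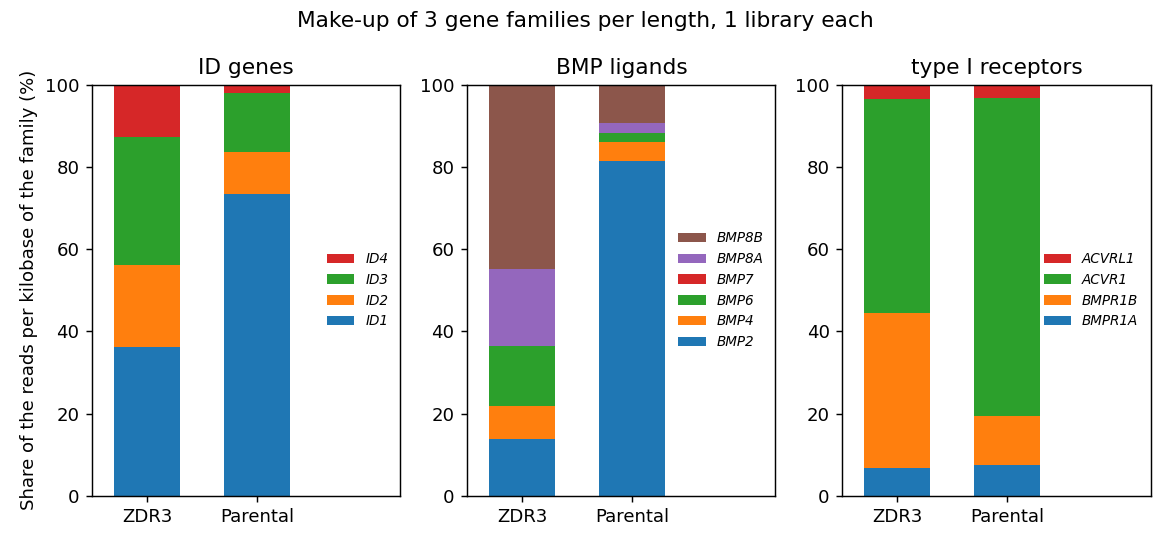
Share of each gene in the summed reads per kilobase of its family, in percent, for the ZDR3 library (left bar) and the parental library (right bar) of the ID genes, 6 BMP ligands and 4 type I receptors. ID1 makes up 36.3% of the ID genes in ZDR3 and 73.4% in parental cells, and BMP2 makes up 13.7% of the ligands in ZDR3 and 81.5% in parental cells.

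SMAD6 (ENSG00000137834), the inhibitory SMAD with a preference for BMP receptors, was at 6.89 (948 reads) in ZDR3 and 16.5 (2353 reads) in parental cells. Its log2 ratio was -1.15 and its plain ratio 0.418, with an interval of 0.387 to 0.451. With a pseudocount of 5 the log2 ratio was -0.85, inside the 2-fold limit. SMAD7, the inhibitory SMAD that acts on TGF-beta and BMP receptors alike, lay in the opposite direction, at 19.6 in ZDR3 and 11.1 in parental cells (log2 ratio 0.76). Per exon length SMAD6 made up 17.1% of the 2 inhibitory SMADs in ZDR3 and 46.5% in parental cells. With the longest transcript as length it made up 23.0% in ZDR3 and 55.7% in parental cells. Which of the 2 led in parental cells thus depends on the length used. Calls over all expressed genes were 10.6% higher and 9.68% lower. Among 11 expressed intracellular inhibitors outside the set 1 was called lower and 0 were called higher, and the median log2 ratio was 0.07. That one was SKIL (SnoN), a SMAD corepressor, at 26.6 in ZDR3 and 60.7 in parental cells (-1.16). BAMBI, a pseudoreceptor that blocks the receptor complex, was at 37.3 in ZDR3 and 21.6 in parental cells (0.76), and the ubiquitin ligase SMURF1 at 102 in ZDR3 and 167 in parental cells (-0.71).

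Of the SMADs that carry the signal, SMAD1 was at 19.7 in ZDR3 and 23.5 in parental cells (log2 ratio -0.24). SMAD4, the common partner, was at 71.3 in ZDR3 and 48.2 in parental cells (0.56). SMAD9, also known as SMAD8, was at 12.9 (1775 reads) in ZDR3 and 1.41 (202 reads) in parental cells. The log2 ratio of SMAD9 was 2.53, the largest of the 3 SMADs. SMAD5 was not analysed here.

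ID1 (ENSG00000125968), the ID gene most often used as a readout of BMP signals, was at 34.1 (4696 reads) in ZDR3 and 84.7 (12104 reads) in parental cells. Its log2 ratio was -1.29 and its plain ratio 0.403, with an interval of 0.389 to 0.417, and 6.45% of expressed genes had a lower log2 ratio. ID2 (ENSG00000115738) was at 33.5 (4614 reads) in ZDR3 and 21.1 (3008 reads) in parental cells, a log2 ratio of 0.65 and a plain ratio of 1.59 with an interval of 1.52 to 1.67. ID3 (ENSG00000117318) was at 42.8 (5888 reads) in ZDR3 and 24.4 (3483 reads) in parental cells, a log2 ratio of 0.79 and a plain ratio of 1.76 with an interval of 1.68 to 1.83. The 3 ID genes thus lay on both sides of 0, and ID1 alone of them was called. ID4, the fourth gene of the family and not in the set, was at 22.5 (3095 reads) in ZDR3 and 4.25 (607 reads) in parental cells, with a log2 ratio of 2.16.

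Summed per length, the 4 ID genes came to 43.1 RPKM in ZDR3 and 52.0 RPKM in parental cells, a ratio of 0.829. The composition of that sum differed more. ID1 made up 36.3% in ZDR3 and 73.4% in parental cells, while ID3 made up 31.2% and ID2 19.9% in ZDR3, against 14.5% and 10.2% in parental cells. ID4 made up 12.6% in ZDR3 and 1.94% in parental cells. In parental cells ID1 stood at 38.2 RPKM, above 92.9% of expressed genes. In ZDR3 cells ID1 at 15.6 RPKM and ID3 at 13.5 RPKM lay close together, and with the longest transcript as length ID3 led with 38.9% against 31.5% for ID1. Per length the ID genes had the highest levels of the set in both libraries. The other members ranged from 0.00112 RPKM (GREM1) to 2.28 RPKM (BMPR2) in ZDR3 and from 0.00532 RPKM (GREM1) to 3.86 RPKM (BMP2) in parental cells.

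Other genes known as BMP targets in development lay mostly above 0. Of 19 listed genes 13 were expressed, with 6 called higher, 0 called lower and a median log2 ratio of 0.76. SMAD7 and BAMBI, both at 0.76, were listed here and also among the intracellular inhibitors above. Over all expressed genes 10.6% were called higher and 9.68% lower, and the median was -0.03. HEY1, a repressor shared by Notch and BMP signals, was at 11.4 in ZDR3 and 1.60 in parental cells (log2 ratio 2.25). The homeobox gene MSX1 was at 4.69 in ZDR3 and 0.364 in parental cells (2.06), and SNAI2, a repressor of epithelial genes, at 5.41 in ZDR3 and 0.854 in parental cells (1.79). Besides ID4, the remaining calls were TBX3 (1.10) and MSX2 (1.07). Of the 13 expressed targets 10 lay above 0, and the 3 below were GATA3 (-0.67), RUNX2 (-0.65) and GATA2 (-0.22). Under the minimum level, 2 listed targets had fewer reads in ZDR3 cells. ATOH8 had 4 reads in ZDR3 and 83 in parental cells, and DLX3 had 3 in ZDR3 and 53 in parental cells. Many of the listed targets also answer to other pathways, and ID1 and SMAD6, the targets in the set that were called, lay below 0.

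**Figure D3:**
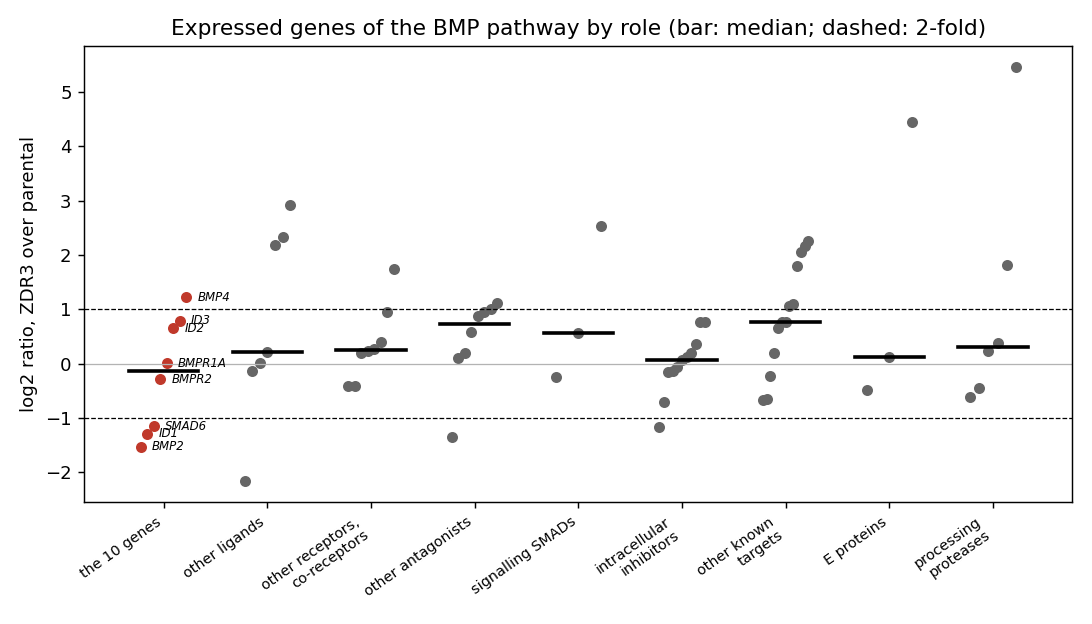
log2 ratio of ZDR3 over parental for the expressed genes of each list, 1 point per gene, with the median as a bar and 2-fold limits dashed. The 8 expressed members run from -1.53 (BMP2) to 1.22 (BMP4), and the other known targets have a median of 0.76.

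ID proteins bind E proteins, and 2 of the 3 E protein genes were expressed in both libraries. The E protein gene TCF3 was at 190 in ZDR3 and 265 in parental cells (log2 ratio -0.48), and TCF12 at 221 in ZDR3 and 202 in parental cells (0.13). TCF4, the E2-2 gene, was at 25.1 (3453 reads) in ZDR3 and 0.196 (28 reads) in parental cells, a log2 ratio of 4.45. Per exon length TCF4 made up 1.62% of the 3 genes in ZDR3 and 0.0108% in parental cells, and with the longest transcript as length 3.66% in ZDR3 and 0.0253% in parental cells.

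Some stretches of chromosome have shifted ratios in this pair of libraries, so each gene was set beside its 20 nearest expressed genes on each side, or as many as lie before the chromosome end (32 in all for ID2). The medians of the neighbours of the 8 expressed genes ran from -0.18 to 0.28. After subtraction BMP2 stood at -1.64 and ID1 at -1.31, while SMAD6 stood at -0.96 and BMP4 at 0.93, just inside the 2-fold limits. ID2 (0.77) and ID3 (0.69) stayed above 0. With 10 genes on each side SMAD6 (-1.06) and BMP4 (1.00) were again at or past 2-fold. Outside the set, BMP8B had 18 higher and 2 lower calls among its 40 neighbours, whose median was 0.74, and stood at 2.19 after subtraction.

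**Figure D4:**
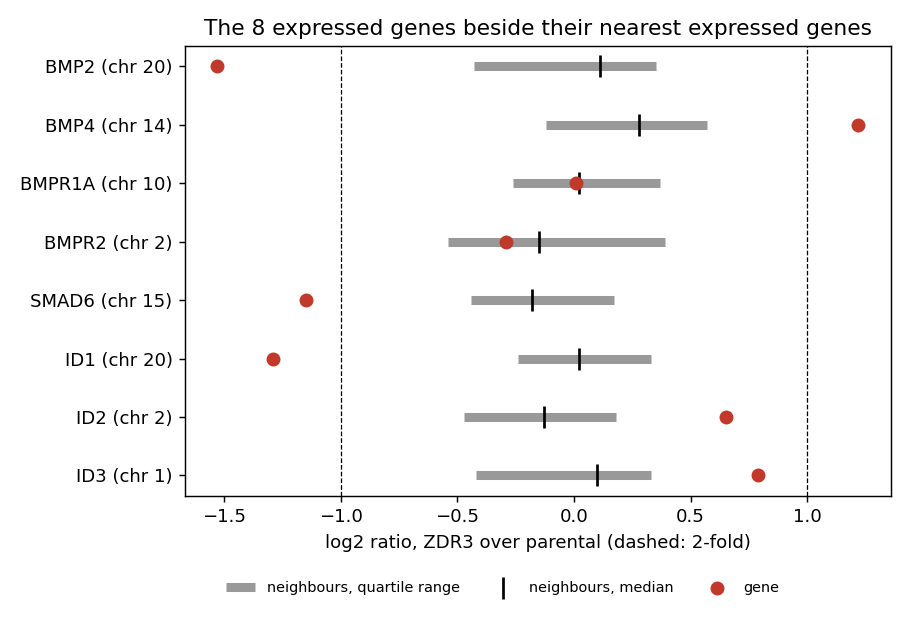
log2 ratio of each expressed member (red point) beside the median (tick) and the quartile range (grey bar) of its nearest expressed genes, 20 on each side where the chromosome holds them, with 2-fold limits dashed. BMP2, ID1, SMAD6, BMP4, ID2 and ID3 lie outside the grey bar of their neighbours, and BMPR1A and BMPR2 lie within it.

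Over the pathway lists outside the set, 57 of 86 genes with a row were expressed. Of these 15, or 26.3%, were called higher, against 10.6% of all expressed genes, and 3, or 5.26%, were called lower, against 9.68%. Their median log2 ratio was 0.24. With a pseudocount of 5 these counts were 9 and 1, where 6.54% of all expressed genes were called higher and 6.28% lower. No test was made of these shares.

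The annotation places other transcripts over some of the genes. By whole gene span, ID2 is overlapped by the antisense gene ID2-AS1, BMP7 by BMP7-AS1 and GREM1 by the opposite-strand noncoding gene AC090877.2. SMAD6 is overlapped by the sense intronic gene AC013564.1, BMPR2 by pseudogenes, and BMPR1A by a pseudogene and an snRNA gene. Overlap of exons was not examined. The strand setting of the counting is not given in the sources used here, so reads from any exons shared across strands cannot be told apart. BMPR1A has the processed pseudogenes BMPR1AP1 and BMPR1AP2, whose reads could be shared with it.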

How the data were processed

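The authors deposited log2 values, 1 for each gene in each library, under a name that calls them RPKM. Back-transformed, they were whole multiples of 1 step per library (0.00727 for ZDR3, 0.00700 for parental), so they are read counts times a factor and not divided by length. All genes with 1 to 100000 reads came out whole within 0.1 read. Genes with the minimum value (3573 in ZDR3, 3504 in parental), equal to 0.9 reads, were set to 0. Per the submitters' processing notes TopHat was used. For its version, the build and the counting tool, nothing is given in the sources used here. The parental column carries the ending Prim and was read as parental because the other column names ZDR3. A pseudocount of 1 and a minimum level of 1 were used, with no test. Python 3.11.15, pandas 2.3.3 and scipy 1.17.1 were used, and calls were tested on simulated data. The simulation held counting noise only and changes larger than 2-fold, so it cannot speak to differences between cultures or to calls near the limit. Lengths and gene order came from GENCODE 29, which placed 97.8% of expressed genes. The 10 genes and all lists were chosen with earlier results of these data known. Named outside the set were up to 4 expressed genes per list with the largest absolute log2 ratio, SMAD1, SMAD4 and the E proteins. ACVR2A, the BMP targets GATA2, GATA3, RUNX2, ATOH8, DLX3, MSX2 and TBX3, the promoters shown and the family sums were chosen after values were seen.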

Additional observations from a re-analysis of the deposited data

How the results depend on the processing

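With a pseudocount of 5, 0 of the 10 genes were at least 2-fold higher (BMP4 at 0.56) and 2 lower (SMAD6 at -0.85), against 1 and 3 with 1 unit, and the pathway lists had 9 higher and 1 lower gene in place of 15 and 3. Of all expressed genes 6.54% were called higher and 6.28% lower at that setting, against 10.6% and 9.68% with 1 unit. A minimum level of 5 left out BMP4, which gave 0 higher members and a median of -0.29. This minimum also left out BMP3 and FST, and the pathway lists had 12 higher and 1 lower gene among 46 expressed. Of all 11891 genes expressed at this minimum 9.94% were called higher and 9.3% lower. The median was -0.07 with no minimum level and -0.07 with neighbours subtracted, against -0.14. With 10 neighbours on each side 4 members were at least 2-fold from their neighbours, against 2 with 20. The share of all expressed genes that far from their own neighbours was not computed. A pseudocount of 0.1, both rescalings and, chosen after seeing the data, no pseudocount gave the same 4 called members. The pathway lists had 18 higher and 3 lower genes with a pseudocount of 0.1, where 12.4% and 11.4% of all expressed genes were called. With no pseudocount they had 19 higher and 3 lower, where 12.7% and 11.6% of all expressed genes were called. Of 58 values of single members under the alternatives 0 changed sign where the member was called, and 23 moved past the counting interval of the log2 ratio at the pseudocount of 1. With no pseudocount BMP4 was at 1.78. No paired analysis was possible because each group holds 1 library. Intervals cover counting error alone, and PCR reads are not independent molecules.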

Other observations

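Proteases that act on BMP precursors and antagonists were examined as a further list. Of 7 genes 6 were expressed, with 2 called higher, 0 called lower and a median log2 ratio of 0.31, where 10.6% of all expressed genes were called higher and 9.68% lower. PCSK5, a proprotein convertase, was at 58.0 (7978 reads) in ZDR3 and 0.329 (47 reads) in parental cells, a log2 ratio of 5.47, and 0.174% of all expressed genes had a higher one. TLL1, a tolloid-like protease that can cleave chordin, was at 28.8 in ZDR3 and 7.51 in parental cells (1.81). FURIN, the best known convertase of BMP precursors, was at 56.9 in ZDR3 and 78.3 in parental cells (-0.45), and PCSK7 at 52.9 in ZDR3 and 81.8 in parental cells (-0.62). Each rests on 1 library per group.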
